A study of Mus musculus with 43 samples.

Results

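The 47 genes described here act at the G2/M transition and on the mitotic spindle, and they were followed in PD798, a cell line from a pancreatic ductal adenocarcinoma of a KPCY mouse. The genes were chosen by symbol, and all 47 were found in both expression tables, which hold 13845 genes for the processing experiment and 13817 for the input series. All 47 passed the filter on low values, at least 1 TPM (a read count scaled for transcript length and library total) in at least 3 libraries, as did 12159 and 12325 genes in all. The mitotic score of a library is the mean log2(TPM + 1) over the 47 genes.

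The processing experiment asked whether isolating tumor cells alters their expression, and its 12 bulk libraries are 3 from each of 4 conditions. Pre-enriched cells were labelled with magnetic particles, exposed to red blood cell lysis, passed through the magnetic and acoustic pre-enrichment system and sorted on a BD Influx sorter. FACS-only cells came, by the study's account, from the same sample and were sorted without passing through the pre-enrichment system. Pre-FACS cells were an aliquot kept back before sorting, and Mock cells stayed in staining buffer at room temperature on the bench. The input series comprised 11 single cells, 12 pools of 10 cells and 6 pools of 100 cells, all pre-enriched and sorted from mouse blood, and 2 libraries of bulk RNA from the line. All libraries come from this line, with Pdx1-Cre, p53 L/+ and a YFP reporter among its alleles, grown in culture, so that they stand for 1 tumor line and not for cells shed in an animal. The labels name no separate cultures, so p-values measure the spread between these samples, which may be technical. The labels speak of blood for every sample, while the study's account of the processing conditions does not.

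Before division, cyclin B proteins activate the kinase Cdk1, whose activity drives entry into mitosis. The kinases Plk1, Aurka and Nek2 act at centrosomes and the spindle, and kinesin motors move and order microtubules. The spindle checkpoint, with Bub1, Bub3, Mad2l1 and Ttk, holds back Cdc20 and the anaphase-promoting complex until chromosomes are attached, and degradation of cyclins then ends mitosis. Transcripts of most of these genes are known to accumulate late in the cell cycle and to be scarce in G1.

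All 8 epithelial markers (keratins, claudins, Cdh1 and Epcam) had a median of 1 TPM or more in every condition and every input, at unlike levels. In Pre-FACS cells the medians were 8604 TPM for Krt18, 36.2 TPM for Epcam, 6.46 TPM for Cldn4 and 5.48 TPM for Cldn7. The lowest single-cell values of Epcam and Cldn4 were 0. Of 12 leukocyte markers listed, the tables held 4 for the processing experiment and 3 (Cd79a, Cd74 and Coro1a) for the input series. Those held summed to at most 4.86 TPM in any library, and the rest of the list could not be read. Of the erythroid and platelet genes, Alas2, the erythroid enzyme of heme synthesis, reached 278 TPM in single cell 11 and at most 83.3 TPM in the pools. TPM keeps no read depth, so the depth behind each value is unknown. The genes of the table added up to 54.2% to 99.99% of the TPM total in single cells and to 93.5% or more in the pools and bulk RNA.

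Several libraries of the input series stood apart from others with the same label. Across the 12325 genes, single cells 6 and 9 correlated with the mean of 100-cell pools 1 to 3 at r = 0.993 and 0.975, and 10-cell pools 5 and 12 at r = 0.993 and 0.994. The other 9 single cells ranged from 0.648 to 0.829 in the same measure. Single cell 6 correlated at 0.996 with 10-cell pool 5 and at 0.995 with 10-cell pool 12, and its table held 11438 genes at 1 TPM or more, against 3919 to 8598 in the 9 others. Pools 4 to 6 of 100 cells correlated at only 0.880 to 0.900 with the mean of pools 1 to 3. Median scores of single cells and 10-cell pools are therefore given with and without these 4 libraries. Other values over these inputs, such as SDs and ranges, include them unless stated. The 4 libraries were chosen after their profiles were seen, and what sets them apart was not tested.

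In bulk RNA of the input series, the 47 genes spanned a wide range of levels per transcript length. Ube2c, the ubiquitin-conjugating enzyme of the anaphase-promoting complex, was highest at 300.1 and 298.8 TPM. The checkpoint protein Bub3 followed at 191.3 and 190.7 TPM, the cyclins Ccnb1 at 120.9 and 117.2 TPM and Ccnb2 at 114.7 and 112.3 TPM, and the midzone protein Prc1 at 115.9 and 109.3 TPM. Both Ccnb1 values lay above those of Ccnb2 and Prc1, whose ranges overlapped, so the order of the last 2 was not resolved. The lowest were Kifc1, a minus-end directed kinesin, at 6.91 and 5.54 TPM, the spindle pole protein Aspm at 11.1 and 9.13 TPM, and the kinetochore protein Cenpf at 13.2 and 12.2 TPM. Cenpe, a kinetochore motor, was at 14.3 and 14.4 TPM and Kif20b, a cytokinetic kinesin, at 16.2 and 14.9 TPM.

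The mitotic score differed more among single cells than among any larger input. In single cells 1 to 11 the score was 1.02, 0.48, 4.58, 4.55, 4.28, 4.98, 0.83, 3.86, 4.56, 4.53 and 0.38. Cells 1, 2, 7 and 11 thus lay between 0.38 and 1.02 and the other 7 cells between 3.86 and 4.98, with no cell in between. Over all 11 cells the median was 4.28, and without cells 6 and 9 it was 3.86, while the lowest value was the same and the highest was 4.58. Each cell is its own library, so no test was run between cells, and a cell's level cannot be told apart from its capture of transcripts.

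The number of the 47 genes at 1 TPM or more did not follow the number of all genes found in a cell. Single cell 1 had 62.2% of the genes of the table at 1 TPM or more but 11 of the 47 mitotic genes (23.4%). Single cell 8 had 28.4% of all genes, the lowest share, but 30 mitotic genes (63.8%). Cells 2, 7 and 11 had 5, 9 and 3 mitotic genes at 42.1%, 36.2% and 29.7% of all genes, and cells 3, 4, 5 and 10 had 40, 40, 38 and 37 at 38.8% to 48.8%. All 47 genes were at 1 TPM or more only in single cells 6 and 9, which also had the largest shares of all genes, at 82.8% and 81.2%.

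**Figure D1:**
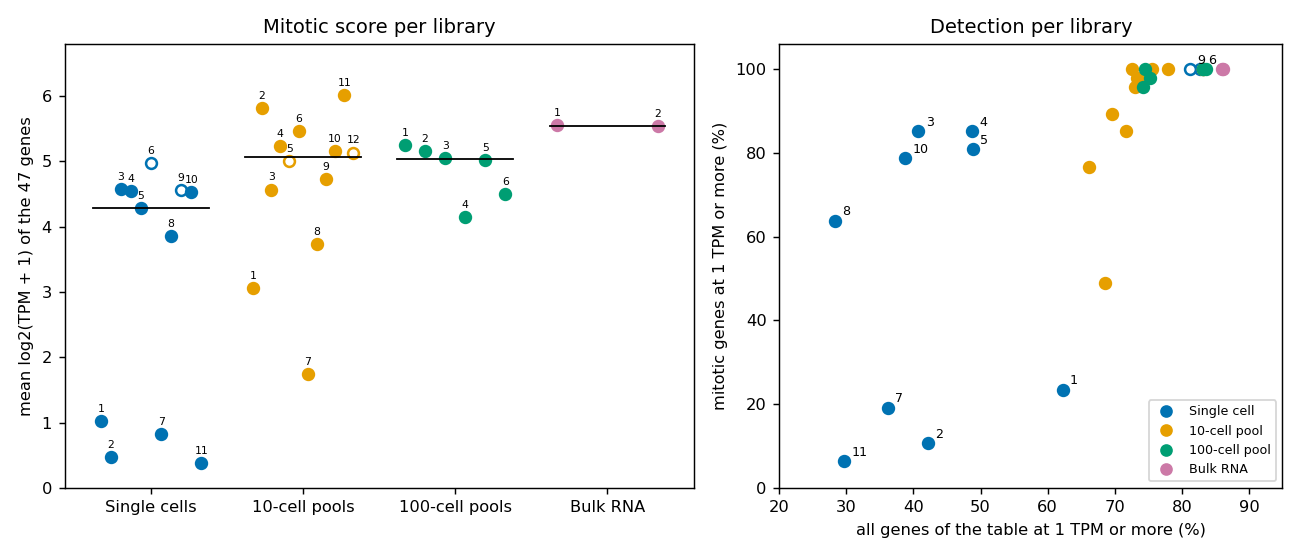
Left, the mitotic score (mean log2(TPM + 1) of the 47 genes) of each library of the input series, numbered as in the labels, with a line at the median of each input; right, the percent of the 47 genes against the percent of all genes at 1 TPM or more, with single cells numbered. Open symbols are single cells 6 and 9 and 10-cell pools 5 and 12, and cells 1, 2, 7 and 11 lie at scores of 1.02 or less.

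Cell cycle genes outside the 47 gave each cell's other values. The mean log2(TPM + 1) of 40 other mitotic genes was 1.53, 0.70, 0.61 and 0.91 in cells 1, 2, 7 and 11 and 2.31 to 4.08 in the other 7. The same mean over 40 genes of G1/S and DNA replication was 2.47, 1.33, 2.43 and 1.75 in cells 1, 2, 7 and 11. It was highest in single cell 3 at 5.78 and was 3.06 in single cell 8 and 3.61 in single cell 10, so that the order of the 7 cells by replication genes was not their order by mitotic genes. Epithelial markers averaged 11.1 in single cell 1, 9.79 in cell 2 and 9.62 in cell 7 on the log2 scale. Single cell 11 had the lowest epithelial mean, 6.00, beside the Alas2 level given above, and single cell 3 followed at 6.38; the part of these in the mitotic scores was not tested.

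Ccnb2, a mitotic cyclin, followed the split by score between the 7 cells and the other 4. Ccnb2 and the other members described below enter that score, so their following it adds no separate evidence for the split. It was at 42.1, 73.2, 41.7, 152, 254, 120.1 and 316 TPM in single cells 3, 4, 5, 6, 8, 9 and 10. In cells 1, 2, 7 and 11 it was below 1 TPM. Ccnb1, the main mitotic cyclin, was at 124, 136, 76.2, 95.4, 167, 58.3 and 192 TPM in the same 7 cells and below 1 TPM in cells 1, 2 and 7. Among the cyclins of the 47 genes it was the only 1 found in cell 11, at 67.9 TPM. In cell 11 the other members at 1 TPM or more were Cdk1 at 23.0 TPM and Bub3 at 122 TPM, so its Ccnb1 level stood without Ccnb2 or Ccna2, which were listed at 0. Of the words of 31 bases in the Ccnb1 transcripts, 46.9% also occur in other annotated transcripts, mostly of the pseudogene Ccnb1-ps, so its value may include reads of these copies.

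Cdk1 and Bub3 were the only 2 of the 47 genes at 1 TPM or more in all 11 single cells, as were 12.7% of all genes that passed the filter. Cdk1 was at 35.8, 20.4, 14.7 and 23.0 TPM in cells 1, 2, 7 and 11 and at 56.5 to 409 TPM in the other 7, so these ranges did not overlap. Cdk1 is itself part of the score that made this split. Bub3 was at 366, 150.1, 288, 326, 110.2, 269, 43.5, 206, 208, 312 and 122 TPM in cells 1 to 11, and cell 1 had the highest value. Bub3 had the smallest SD of log2(TPM + 1) over single cells, 0.90, among the members with 10 TPM or more in both bulk RNA libraries.

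Ube2c varied most between single cells, with an SD of 4.19 on the log2 scale. It was at 710, 73.6, 466.2, 364, 1438, 464 and 1014 TPM in cells 3, 4, 5, 6, 8, 9 and 10 and at 25.4 TPM in cell 1, and it was below 1 TPM in cells 2, 7 and 11. Ccnb2, Aurkb, Mad2l1 and Cdca8 came next, with SDs of 3.53, 3.41, 3.28 and 3.26. Aurkb, the kinase of the chromosomal passenger complex, was highest in cell 4 at 274 TPM, and it was listed at 0 in cell 10 although that cell had 316 TPM of Ccnb2 and 185 TPM of Aurka. Mad2l1, a checkpoint protein, was highest in cell 5 at 197 TPM. Cdca8, another subunit of the passenger complex, was highest in cell 4 at 157 TPM. Under the same limit on bulk RNA, the members with the smallest SDs after Bub3 were Spag5 (1.196), Kif4 (1.54), Cenpf (1.62) and Cdk1 (1.65); of these, Spag5, Kif4 and Cenpf were at 22.2 TPM or less in bulk RNA and at 12.4 TPM or less in every single cell, so their levels were low throughout.

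**Figure D2:**
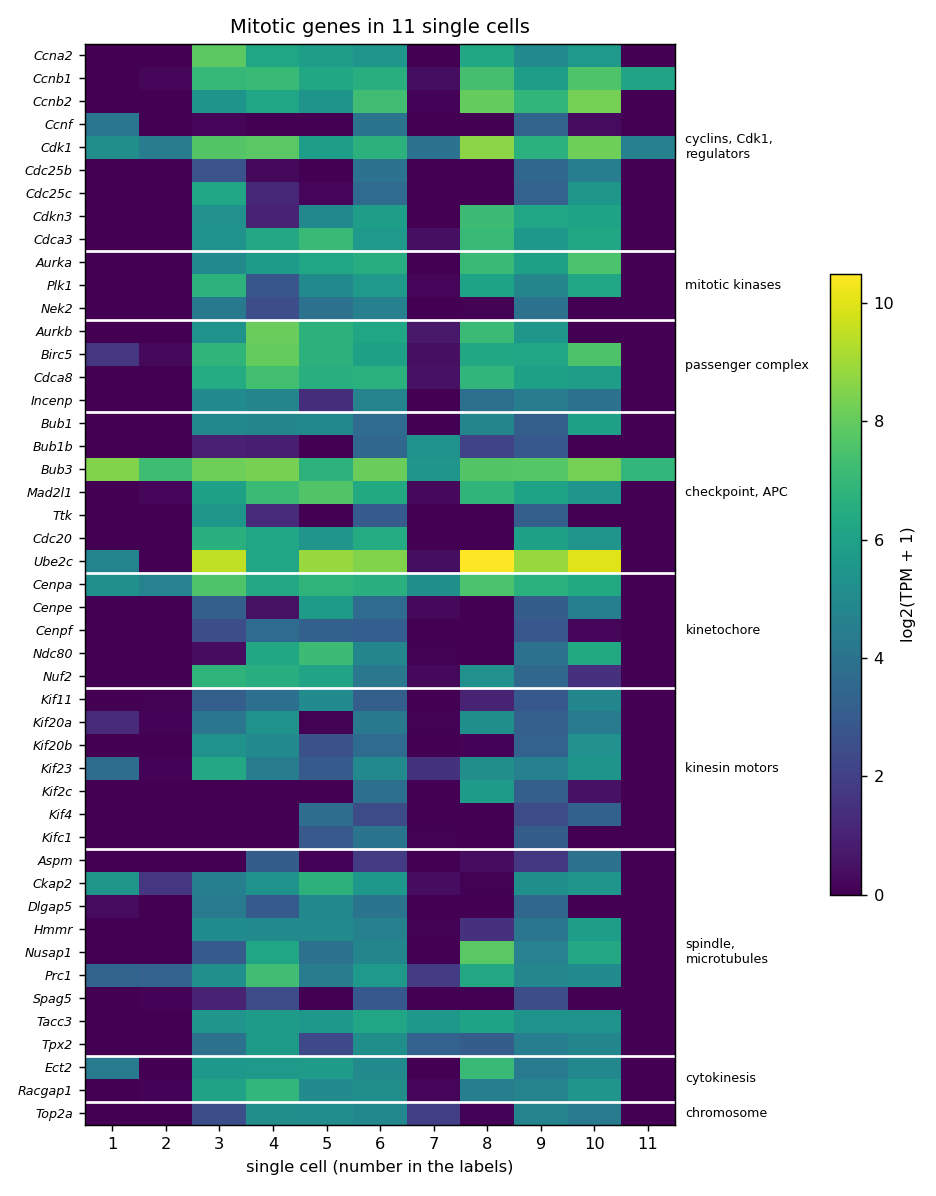
Level of each of the 47 genes (rows, grouped by role) in single cells 1 to 11 (columns), as log2(TPM + 1) from 0 (dark) upward. Columns 1, 2, 7 and 11 are mostly at or near 0, with Bub3 and Cdk1 present in every cell.

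Cells with few mitotic genes still held some of them. In cell 1 the highest after Bub3 were the spindle protein Ckap2 at 45.5 TPM, the centromeric histone Cenpa at 37.7 TPM, Cdk1 at 35.8 TPM and Ube2c at 25.4 TPM. Cell 7 held Tacc3, a spindle protein, at 47.2 TPM and the checkpoint kinase Bub1b at 39.7 TPM, the highest Bub1b level of any single cell. Top2a, the topoisomerase of mitotic chromosomes, was at 4.79, 34.9, 34.0, 29.0, 24.6 and 19.2 TPM in cells 3, 4, 5, 6, 9 and 10 and at 2.87 TPM in cell 7. Plk1 was at 109, 6.04, 31.7, 48.4, 67.5, 26.8 and 72.2 TPM in cells 3, 4, 5, 6, 8, 9 and 10 and below 1 TPM in the other 4. Bub1, the checkpoint kinase, was at 28.8, 27.2, 28.8, 11.6, 27.2, 8.01 and 62.9 TPM in those 7 cells and below 1 TPM in the other 4.

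By number of cells, 17 of the 47 genes were at 1 TPM or more in 7 of 11 single cells, among them Aurka, Plk1, Bub1, Mad2l1 and Top2a. Kifc1, Kif2c and Ccnf were found in 3 cells each, and of those cells 2 were cells 6 and 9 for every one of the 3 genes. Without cells 6 and 9, the count of 17 genes at 7 cells becomes 17 genes at 5 of 9 cells. Kif4, a chromokinesin, was the only X-linked member, and it was listed at 0 in cells 1 to 4, 7, 8 and 11 and was at 12.4, 4.46, 4.21 and 8.67 TPM in cells 5, 6, 9 and 10.

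Among roles, the mean log2(TPM + 1) of the 4 passenger complex genes ran from 0 to 7.05 in single cells around bulk values of 5.90 and 5.91. That of the 5 kinetochore genes ran from 0 to 5.81 around 4.63 and 4.67, so the highest single cell lay above bulk RNA for these roles. The 7 kinesins reached at most 3.77, in single cell 6, which stood apart from most single cells, against 4.63 and 4.69 in bulk RNA. The 9 spindle and microtubule proteins reached at most 4.87 against 5.47 and 5.47.

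Of the 12 pools of 10 cells, 5 held all 47 genes at 1 TPM or more, pools 5 and 12 among them, and 5 others held 40 to 46. In pools 1 to 12 the score was 3.07, 5.82, 4.57, 5.23, 5.00, 5.47, 1.74, 3.74, 4.74, 5.16, 6.02 and 5.14, with a median of 5.07, or 4.95 without pools 5 and 12. Pool 7 was lowest and had 23 of the 47 genes at 1 TPM or more, although it held 68.5% of all genes; Plk1, Aurka, Aurkb, Cdc20 and Ccna2 were listed at 0 there, and Ccnb1 was at 8.11 TPM against 29.7 to 272 TPM in the other 11 pools. Pool 1 had 36 of the 47 genes. Pools 2 and 11, the highest, lay above both bulk RNA libraries, whose scores were 5.55 and 5.54. Replication genes averaged 2.58 in pool 7, the lowest pool by that list too, and 4.13 in pool 1.

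The 6 pools of 100 cells had scores of 5.25, 5.16, 5.05, 4.15, 5.02 and 4.50. Their range, 4.15 to 5.25, lay below both bulk RNA libraries and within the range of the 10-cell pools. The medians were 4.28 in single cells, 5.07 in 10-cell pools, 5.03 in 100-cell pools and 5.55 in bulk RNA, and the ranges of the 3 sorted inputs overlapped. After the mean of all genes in the same library was subtracted, the medians were 0.78, 0.98, 0.89 and 0.83, so that the higher score of bulk RNA went with a higher mean over all genes.

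The 100-cell pools fell into 2 sets with different balances among the mitotic genes. In pools 4 to 6, 21 of the 47 genes (44.7%) lay below every value of pools 1 to 3 and 12 (25.5%) lay above, and 14 overlapped. Over the 12325 genes past the filter, 58.8% lay below and 15.9% above. Other lists moved with the split: 28 of 40 replication genes, 21 of 40 other mitotic genes and 8 of 9 cell cycle exit genes lay below, and the mean of the epithelial markers was 8.81, 9.27 and 9.30 on the log2 scale in pools 4 to 6 against 10.97, 10.96 and 10.99 in pools 1 to 3. Their part in the mitotic levels was not tested. The split of the pools was made after their profiles were seen, and these counts are a description without a test. Cdc20, the activator of the anaphase-promoting complex, was at 98.7, 95.7 and 88.7 TPM in pools 1 to 3 and at 5.87, 22.2 and 11.8 TPM in pools 4 to 6. Plk1 was at 57.5, 56.3 and 50.8 TPM against 9.11, 18.4 and 11.3 TPM. Ube2c, which acts with Cdc20, stood the other way, at 295, 314 and 320 TPM against 512, 999 and 684 TPM, as did Ccnb2, at 169, 166 and 163 TPM against 273, 416 and 297 TPM. Mad2l1 was at 84.2, 79.0 and 68.3 TPM against 194, 207 and 204 TPM. In bulk RNA, Cdc20 was at 91.5 and 97.0 TPM and Mad2l1 at 65.9 and 72.5 TPM, near pools 1 to 3 for both genes. The longest transcripts of the 21 lower genes had a median GC content of 50.4%, those of the 12 higher genes 47.5% and those of the 14 others 43.0%. Over the 47 genes, the log2 difference of pools 4 to 6 from pools 1 to 3 correlated with GC content at r = -0.52 (Pearson). With log2 transcript length it correlated at r = -0.03. The part of base composition was not tested.

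**Figure D3:**
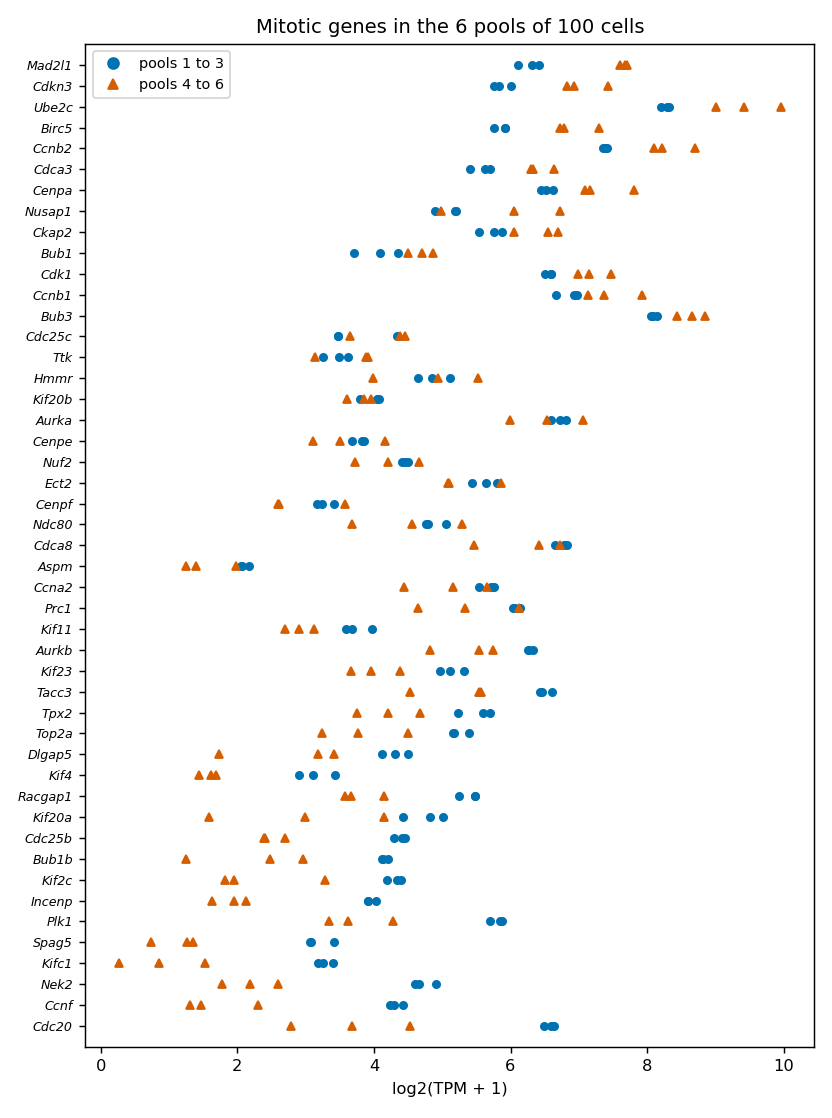
Level of each of the 47 genes, as log2(TPM + 1), in the 6 pools of 100 cells: circles are pools 1 to 3 and triangles pools 4 to 6, with genes ordered by the difference between the sets. Cdc20 and Ccnf lie at the bottom, with triangles far to the left of the circles, and Mad2l1, Cdkn3 and Ube2c at the top, with triangles to the right.

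The promoters of the 47 genes shared sequence that their choice by symbol did not use. Late cell cycle promoters are known for the cell cycle genes homology region, with the core TTTGAA, and for CCAAT boxes bound by the factor NF-Y. RefSeq promoters of GRCm38.p6, from 250 bases before to 50 bases after the start, were matched for 40 of the 47 genes and for 27025 genes in all. TTTGAA or its reverse complement TTCAAA was found in 30 of the 40 genes (75%). It was found in 20.2% of all genes with a promoter and in 14% of the tested genes with a promoter. A gene was counted where at least 1 of its promoters held the motif or, for both motifs, held both. CCAAT or ATTGG was found in 80% against 41.1% of all, and both motifs in 67.5% against 7.97%. The last base of CCAAT can be the first of TTTGAA, so the motifs can overlap by 1 base. Among the other lists, TTTGAA was in 61.3% of the other mitotic genes, 16.7% of the replication genes and 11.1% of the cell cycle exit genes. In the same order, CCAAT or ATTGG was in 64.5%, 63.3% and 66.7%, so this motif was also frequent in the other cell cycle lists. Both motifs were in 45.2%, 13.3% and 0%. Of the tested genes with a promoter, 43.3% had CCAAT or ATTGG and 5.75% had both motifs. These are matches of letters, and no binding was measured here.

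The 100 bases before the start are printed for 6 genes that the results name, with both motifs in capitals on either strand, 5′ to 3′ on the strand of the gene; windows with more than 30 bases inside an annotated gene were left out. Windows could be read for 16 named genes, and TTTGAA or TTCAAA lay in those of Cdk1, Kif11 and Prc1 only, so the 6 printed hold all 3 windows with it and 3 of the 13 without. Cdk1 (chr10:69352913-69353012, minus strand) and Kif11 (chr19:37376282-37376381, plus strand) carry TTTGAA or TTCAAA beginning 15 and 19 bases before the start, and Cdk1 has another match at 71 bases. For Prc1 (chr7:80294376-80294475, plus strand) the later of 2 starts is shown, with the motif at 30 bases. Kifc1 (chr17:33890634-33890733, minus strand), Bub1 (chr2:127831860-127831959, minus strand) and Plk1 (chr7:122159335-122159434, plus strand) show CCAAT boxes and no TTTGAA in this window; in Kifc1 and Plk1 it lies past the start.
Cdk1: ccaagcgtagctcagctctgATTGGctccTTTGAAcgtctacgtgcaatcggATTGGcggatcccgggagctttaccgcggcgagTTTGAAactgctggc
Kif11: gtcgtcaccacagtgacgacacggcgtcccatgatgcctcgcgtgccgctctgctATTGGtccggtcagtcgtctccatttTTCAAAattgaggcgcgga
Prc1: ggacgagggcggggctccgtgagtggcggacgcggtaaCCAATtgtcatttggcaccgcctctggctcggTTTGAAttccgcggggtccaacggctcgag
Kifc1: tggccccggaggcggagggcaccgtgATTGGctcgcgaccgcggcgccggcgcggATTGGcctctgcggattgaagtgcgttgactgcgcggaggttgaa
Bub1: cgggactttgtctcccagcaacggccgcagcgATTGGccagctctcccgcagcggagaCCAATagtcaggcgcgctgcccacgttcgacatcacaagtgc
Plk1: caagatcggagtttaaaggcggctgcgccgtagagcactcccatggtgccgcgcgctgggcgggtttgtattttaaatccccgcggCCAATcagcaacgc

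In the processing experiment, Kifc1 was the only one of the mitotic genes called by the limma tests. The mean score of Pre-FACS cells was 6.47 ± 0.083 (SD, n = 3) and that of Mock cells 6.45 ± 0.065. Sorted cells had mean scores of 6.42 ± 0.104 without pre-enrichment and 6.41 ± 0.079 after it. The largest difference between conditions, Pre-enriched minus Pre-FACS, was -0.07 with an SE of 0.07, less than the SD within either condition. With 1 library left out it ran from -0.11 without Pre-FACS library 1 to -0.02 without Pre-enriched library 1. In the limma F test across the 4 conditions, 1 of the 47 genes passed an adjusted p of 0.05, against 13 of 12159 genes (0.107%), and 2 of the 47 and 919 of all genes were under 0.05 without adjustment.

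Kifc1 (ENSMUSG00000079553, chr17:33875659-33890661, minus strand of GRCm38), which slides and bundles spindle microtubules and clusters centrosomes, was at 18.1, 21.1 and 23.1 TPM in Pre-FACS and at 16.2, 17.4 and 17.2 TPM in Mock cells. It was at 12.0, 11.9 and 13.3 TPM in FACS-only and at 10.1, 13.2 and 10.6 TPM in Pre-enriched cells. All 6 sorted libraries thus lay below all 6 unsorted ones, and all 3 Mock libraries lay below all 3 Pre-FACS libraries. The F test gave an adjusted p of 0.0314 by limma, a call that held with 1 library left out only without FACS-only 1 or Pre-enriched 2. Kifc1 fell by 0.69 on the log2(TPM + 1) scale from Pre-FACS to FACS-only (SE 0.127, limma adjusted p = 0.0426), where 15 genes (0.123%) were called, 12 of them higher. From Pre-FACS to Pre-enriched it fell by 0.82 (SE 0.127, limma adjusted p = 0.0230), where 6 genes (0.0493%) were called. Against Mock, the difference was -0.55 in Pre-enriched cells (limma adjusted p = 0.291) and -0.42 in FACS-only cells (limma adjusted p = 0.770).

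The value of Kifc1 carries 2 limits. Of the 31-base words of its transcripts, 64.8% occur in other genes and 58.7% in its near copy Kifc5b, which was at 1.77 to 4.69 TPM, and with both genes summed the adjusted p by limma was 0.0909 in the F test, 0.106 for FACS-only and 0.0479 for Pre-enriched minus Pre-FACS, so that the first 2 calls were lost. Without FACS-only libraries 1, 2 or 3, Mock 1 or 2, Pre-FACS 2 or 3, or Pre-enriched 1 or 3, the FACS-only call was lost, with limma adjusted p from 0.0536 to 0.249, and without Pre-FACS 2 or 3 or Pre-enriched 1 or 3 so was the Pre-enriched call, from 0.114 to 0.164, while with any 1 of the 12 libraries left out the differences stayed between -0.78 and -0.62 and between -0.93 and -0.75.

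**Figure D4:**
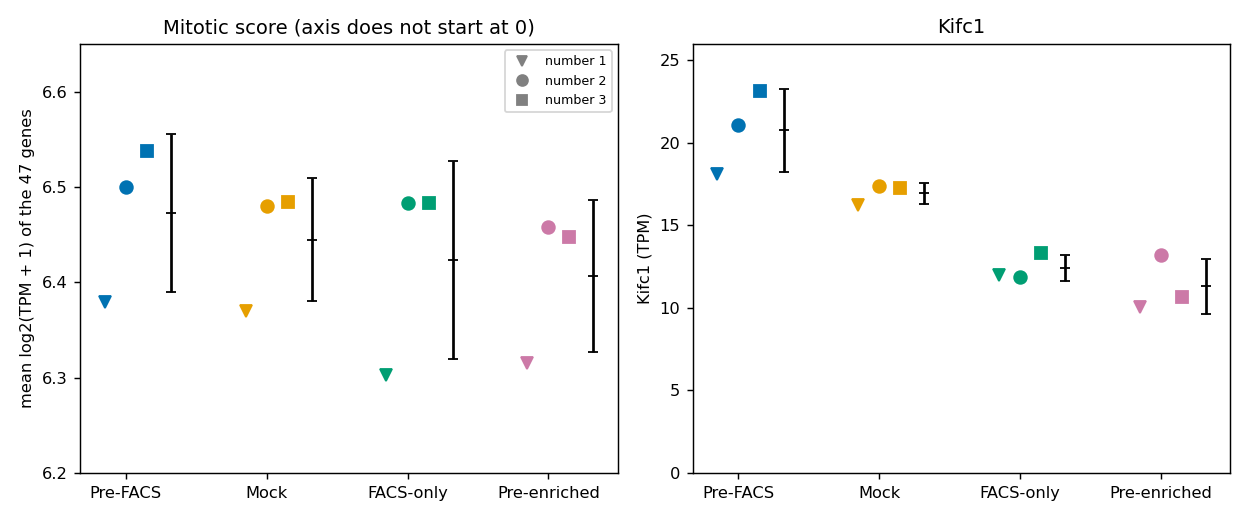
Left, mitotic score of each library of the processing experiment by condition, with the library's number as the symbol and mean ± SD beside it (n = 3; the axis starts above 0); right, Kifc1 in TPM in the same libraries. Library 1 has the lowest score in each condition, and all sorted libraries have less Kifc1 than all unsorted ones.

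In the other contrasts none of the 47 genes was called. From Pre-FACS to Mock, 0 of 47 were called, beside 1 of all genes (0.00822%). By limma, 2 of the 47 (Kifc1 at -0.27 and Cenpa at -0.13) and 551 of all genes (4.53%) had an unadjusted p under 0.05. Pre-enriched minus FACS-only, Pre-enriched minus Mock and FACS-only minus Mock had 0 calls among all genes (0%), with 2, 3 and 2 of the 47 and 821, 945 and 684 of all genes under an unadjusted p of 0.05 by limma. The lowest adjusted p in these 3 contrasts was 0.0690, 0.192 and 0.664 over all genes.

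Among the other named genes, Ccnb1 had the next lowest p in the F test (limma adjusted p = 0.651). Pre-enriched libraries had 198, 222 and 228 TPM and FACS-only libraries 220.4, 262 and 250.1 TPM. Unsorted cells had 235, 247 and 262 TPM in Pre-FACS and 234, 258 and 245 TPM in Mock libraries. All 3 Pre-enriched libraries were below all 3 Pre-FACS libraries, and they overlapped FACS-only, with a difference from Pre-FACS of -0.20 (SE 0.072). Kif11, the motor that separates spindle poles, was at 79.3, 85.2 and 87.2 TPM in Pre-enriched and at 86.7, 97.1 and 102.7 TPM in Pre-FACS cells, ranges that overlapped. Ect2, the exchange factor that starts cytokinesis, was at 205, 217 and 227 TPM in Pre-enriched and at 222, 247 and 268 TPM in Pre-FACS cells. Ttk, a checkpoint kinase, was at 27.2, 32.9 and 31.4 TPM in FACS-only and at 33.3, 35.2 and 41.5 TPM in Pre-FACS cells, without overlap, with a difference of -0.26 (SE 0.109, limma adjusted p = 0.654).

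None of the remaining named genes passed the test in any contrast. Cenpf was higher by 0.21 in FACS-only and by 0.27 in Pre-enriched cells than in Pre-FACS cells, the largest positive differences of the 47 genes in these contrasts, and did not pass the test. Ccnf, a cyclin F-box protein, differed by -0.27 between Pre-enriched and Pre-FACS cells. Kif20b differed by -0.22 between FACS-only and Pre-FACS and by -0.21 between Mock and Pre-FACS cells. Aspm differed by -0.29 between Pre-enriched and FACS-only cells. Nek2, a centrosomal kinase, ranged from 48.0 to 69.1 TPM in Pre-enriched cells alone. Ube2c, the highest of the set, was at 388, 398 and 393 TPM in Pre-FACS and at 400.3, 404 and 408 TPM in Pre-enriched cells. The F test gave an adjusted p of 0.774 or more by limma for Kif20a, Aurka, Aspm and Cenpa.

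**Figure D5:**
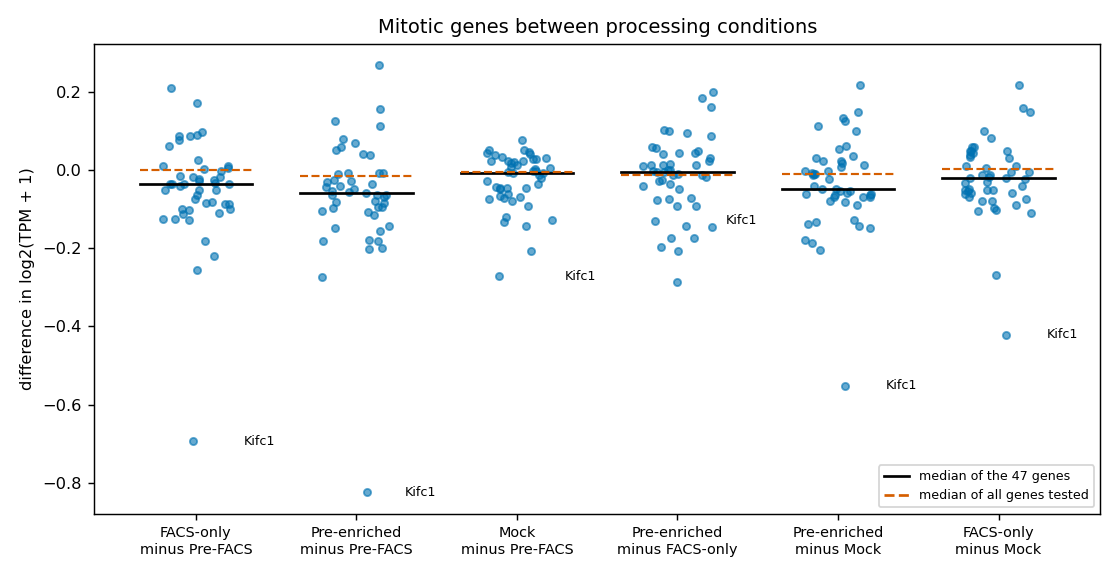
Difference in log2(TPM + 1) of each of the 47 genes (points) in the 6 contrasts between conditions, with the median of the 47 genes (solid line) and of all 12159 genes tested (dashed line). Kifc1 is the lowest point in 5 of the 6 contrasts, and all other genes lie between -0.29 and 0.27.

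Over the whole set, the median difference was -0.04 between FACS-only and Pre-FACS, with 34 of 47 genes lower, against 0.00 and 49.7% of all genes. It was -0.06 between Pre-enriched and Pre-FACS, with 37 of 47 lower, against -0.01 and 54.4% of all genes. These contrasts share the Pre-FACS libraries and are not independent. Between Mock and Pre-FACS the median was -0.01, with 27 of 47 lower. The G1/S and DNA replication list had a median of -0.01 between Pre-enriched and Pre-FACS, with 21 of 40 genes lower, and the 40 other mitotic genes had -0.06, with 29 of 40 lower. Between FACS-only and Pre-FACS, however, the other mitotic genes had a median of 0.00, with 20 of 40 lower, as were 20 of the 40 replication genes. None of the 40 replication genes, 40 other mitotic genes or 9 CDK inhibitors and cell cycle exit genes was called by limma in any contrast. Across the 6 contrasts, 0 to 3 of each list were under an unadjusted p of 0.05. In Pre-enriched minus Pre-FACS these were 3 of the 9 exit, 3 of the 40 other mitotic and 1 of the 40 replication genes. The share of all genes there was 9.18%. In FACS-only minus Pre-FACS the counts in the same order were 2, 0 and 0, beside 6.96% of all genes.

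The libraries numbered 1 had the lowest score in every condition, 6.30 to 6.38, while those numbered 2 and 3 had 6.45 to 6.54. Of the 47 genes, 22 were lowest in library 1 in all 4 conditions (46.8%), against 3.86% of the 12159 genes tested. None was lowest in library 2, or in library 3, in all 4, where the shares of all genes tested were also low, at 1.2% and 2.8%. The 22 included Ccna2, Ccnb1, Ccnf, Aurka, Nek2, Aurkb, Cdc20, Kif20a, Kif4, Ect2 and Top2a. Cdc20 was at 248 and 264 TPM in FACS-only and Mock library 1 and at 274 to 291 TPM in their libraries 2 and 3, and at 251 against 288 and 306 TPM in Pre-FACS and 244 against 269 and 269 TPM in Pre-enriched cells. Among the other lists, 12 of the 40 other mitotic genes and 16 of the 40 replication genes were lowest in library 1 in all 4 conditions, and 0 of the 9 cell cycle exit genes were. Averaged over conditions, library 1 differed from libraries 2 and 3 by a median of -0.14 over the 47 genes, with 45 of 47 lower, and of -0.01 over all genes. Between libraries of the same number, the score of Pre-enriched minus Pre-FACS was -0.06, -0.04 and -0.09 for numbers 1, 2 and 3. These were all of 1 sign and larger than their spread (SD 0.0247). FACS-only minus Pre-FACS (-0.08, -0.02 and -0.05) and Mock minus Pre-FACS (-0.01, -0.02 and -0.05) were also negative for every number. So was Pre-enriched minus Mock (-0.06, -0.02 and -0.04), while Pre-enriched minus FACS-only and FACS-only minus Mock took both signs. The labels do not say what the numbers stand for, so these were patterns seen in the data, described without a test.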

How the data were processed

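Libraries were made with SMART-Seq v4 and sequenced on a NextSeq. The authors aligned reads to mm10 with ERCC sequences (STAR, given as version 2.52 in the submitters' processing notes), counted them with featureCounts, normalized by upper quartile and deposited TPM values, the only unit used here. The 2 tables were normalized separately and were tested and compared only within each. Groups came from the sample titles. No column of values was left unused. The members and lists were chosen with earlier results of these data known. Conditions were compared with limma 3.58.1 (R 4.3.3) on log2(TPM + 1), with variance trend and Benjamini-Hochberg adjustment over all 12159 genes, and the test was checked on simulated data. Single cells, pools and bulk RNA were described without a test. Named genes were those past the threshold, the 10 lowest by F test, the 3 largest differences per contrast, the 5 highest and 5 lowest in bulk RNA, the 5 largest and 5 smallest single-cell SDs (at 10 TPM or more in bulk RNA), and Kif4, Bub1, Ccnb1 and Plk1. Other members were named after their values were seen. Alternatives were pseudocount, filter, quantile normalization, variance model, replicate block and left-out libraries. Coordinates are from GENCODE vM21 on GRCm38, and 31-base words were compared among its transcripts. Markers absent from the tables, such as the globins and Itgam, were not analysed here. The full genotype of the line is not reported here.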

Additional observations from a re-analysis of the deposited data

How the results depend on the processing

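The count of called members changed with the setting only through Kifc1. Without the filter, without the variance trend or without shared information across genes, 0 members were called by the F test and in FACS-only minus Pre-FACS. In Pre-enriched minus Pre-FACS, 0 were called without shared information. With only the 2 conditions compared, 0 were called in either contrast. With 1 library left out, the count was 0 to 1 in the F test and both contrasts, and 0 in the other 4. Over all genes, the F test called 13 genes, but 7 without the filter, 1 without the trend and 2 without shared information; with a library left out it called 1 to 17, FACS-only minus Pre-FACS 5 to 24 against 15, and Pre-enriched minus Pre-FACS 1 to 7 against 6. FACS-only minus Pre-FACS called 0 genes without the trend, 1 without shared information and 10 without the filter, and Pre-enriched minus Pre-FACS called 2 without shared information. Where 0 genes had been called, Pre-enriched minus FACS-only called 1 without the filter and 2 without the trend, and Pre-enriched minus Mock called 1 under each. With only the 2 conditions compared, these contrasts called 1 and 4 genes, and Mock minus Pre-FACS called 0 in place of 1, as it did without the trend. With a library left out, Pre-enriched minus FACS-only called 0 to 2 and Mock minus Pre-FACS 0 to 1. The cause was not tested. Same-numbered libraries did not pair by the rule used, with correlations of deviations from -0.04 to 0.23 and 2 of 18 pairs above 0.1, although 11 of 12 libraries were closest to their own number. With the replicate block, 1 member was called by the F test and in each of the 2 contrasts, and 0 in the other 4, while all-gene counts rose to 61, 77 and 37, and to 7, 7, 2 and 4 in Mock minus Pre-FACS, Pre-enriched minus FACS-only, Pre-enriched minus Mock and FACS-only minus Mock. With the replicate block, score differences were unchanged, but the SD was that of differences between same-numbered libraries, not the pooled SD within conditions. Beyond that other SD were -0.05 in FACS-only, -0.07 in Pre-enriched and -0.03 in Mock minus Pre-FACS and -0.04 in Pre-enriched minus Mock (SDs 0.0304, 0.0247, 0.0236 and 0.0164). No difference exceeded the pooled SD with all libraries, and 6 did with a library left out. Without Pre-FACS 1, FACS-only, Pre-enriched and Mock minus Pre-FACS were -0.10, -0.11 and -0.07. Without Mock 1 Pre-enriched minus Mock was -0.08, without FACS-only 1 Pre-enriched minus FACS-only was -0.08, and without Pre-enriched 2 Pre-enriched minus Pre-FACS was -0.09. Leaving out other libraries went the other way: without Pre-enriched 1 Pre-enriched minus Pre-FACS was -0.02. In the input series, the bulk RNA median of 5.55 became 5.51 with a pseudocount of 0.1, 5.91 as the log2 of mean TPM, 5.67 as a median over members and 5.57 without Kif4, and the 100-cell median of 5.03 became 5.81 as the log2 of mean TPM. Relative to all genes, the medians were 0.78, 0.98, 0.89 and 0.83. At 5 TPM, the median count of members in 100-cell pools was 43.5 in place of 47. Quantile normalization left 18 members, in place of 22, lowest in library 1 in all 4 conditions; this setting, the left-out input libraries, the summed Kifc1 and Kifc5b and the score without Kifc1 were chosen after seeing the data. TPM without depth limits what can be said of values near 0 in single cells.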
